A study of Cricetulus griseus with 8 samples.

Results

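The transcripts described here carry giant coding regions: their listed coding length, the length that the deposited tables give for each transcript, was 2500 or more. They were chosen from identifiers with the prefix ENSCGRT that also had at least 20 counts in each of the 4 RNA libraries. This left 188 transcripts, of which 7 repeated the counts of another in all 8 libraries and were not counted again, so that 181 giant transcripts remained of 34490 identifiers in all, 26985 of which had a listed length. The tables state no unit for this length, which may be a number of codons and is used here for ranking. The libraries came from CHO cells, an established line from Chinese hamster ovary, that were either wild type (control) or expressed RNG140-GFP, a fusion of the RNA-binding protein RNG140 to green fluorescent protein. Each condition had 2 RNA libraries, made with a stranded mRNA kit, and 2 ribosome footprint libraries, in which ribosome-protected fragments left by RNase I were sequenced. The series asked how RNG140-GFP expression changes translation efficiency, that is, footprints relative to RNA. The labels name neither the promoter of the fusion nor whether the expressing cells were 1 clone or a pool.

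A ribosome initiates near the start of a coding region and then elongates codon by codon, so a giant coding region occupies a ribosome for longer than a short one and can hold many ribosomes at a time. Footprints counted per mRNA therefore reflect how often ribosomes start, how fast they move and how many reach the end, and do not separate these. RNG140, also called caprin2, is a paralogue of caprin1 and is found in cytoplasmic RNA granules, where mRNAs are held with translational regulators. In mammals, giant coding regions belong among others to cytoskeletal linkers, motor heavy chains, large ubiquitin ligases, giant kinases and extracellular matrix proteins. Which proteins the 181 transcripts encode is not stated here, since gene names do not stand beside the identifiers in the deposited tables, and 0 of the identifiers matched the reference gene table. For the same reason gene lists were not applied, CHO markers were not checked, and no sequences or positions are printed. Transcripts are called by their listed length, and 4 of them by identifier as well.

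The footprint libraries held between 4908885 and 16928311 counts and the RNA libraries between 22849263 and 35875108. Of the 181 giant transcripts, 178 passed the expression filter in both assays and were tested among 15577 transcripts. A tested giant transcript had a median of 361.5 and 196.5 counts in the control footprint libraries, 440 and 604.5 in the RNG140-GFP footprint libraries, and between 2192 and 3483 in the RNA libraries. The second control footprint library was the thinnest, with 26 of the 178 under 50 counts. Many giant transcripts appear to be variants that share reads. Joining neighbouring identifiers whose counts differed by less than 20% in every library placed the 181 in 120 groups, 75 of them with 1 transcript and the largest with 4. Transcripts of 1 group are not independent measurements, and counts of groups are therefore given beside counts of transcripts. No label says that the 2 libraries of a group came from separate cultures, so p-values measure the spread between these libraries, which may be technical.

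Giant transcripts took a smaller share of footprints than of RNA, and this gap was wider in RNG140-GFP cells. They made up 2.72% and 2.66% of the counts of the control RNA libraries and 2.82% and 2.81% in RNG140-GFP RNA. In footprints they made up 1.34% in both control libraries and 1.22% and 1.24% in RNG140-GFP cells. In both assays the control and RNG140-GFP libraries did not overlap, with RNG140-GFP above control in RNA and below it in footprints. Exact binomial 95% intervals, which cover counting error only, ran from 1.33% to 1.35% or narrower in control footprints, from 1.21% to 1.22% and 1.23% to 1.24% in RNG140-GFP footprints, from 2.72% to 2.73% and 2.66% to 2.67% in control RNA, and from 2.82% to 2.83% and 2.8% to 2.82% in RNG140-GFP RNA. The mean share was 1.05 times the control share in RNA and 0.916 times in footprints. With 1 transcript per group of shared reads these ratios were 1.06 and 0.895. Transcripts of listed length from 1000 to under 2500 moved in the same directions, with ratios of 1.09 in RNA and 0.935 in footprints. Those under 1000 had ratios of 0.98 and 1.01. Footprint share over RNA share went from 0.498 in control to 0.436 in RNG140-GFP cells for giant transcripts. For lengths from 1000 to under 2500 it went from 0.692 to 0.593, so the wider gap was not particular to giant transcripts. The difference between these length classes was not tested. Shares are relative within a library, and a change in the total RNA or footprints per cell would not be seen.

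**Figure D1:**
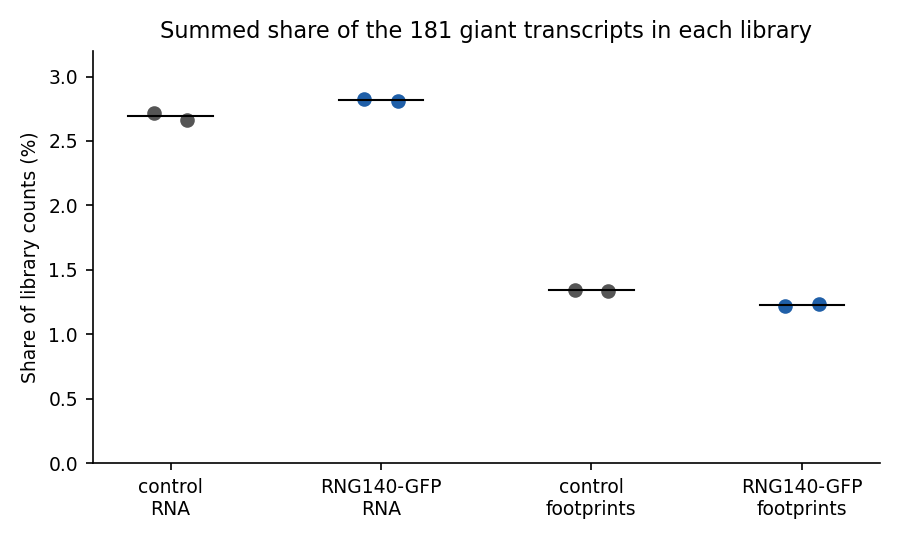
Summed counts of the 181 giant transcripts as a percentage of all counts in a library (vertical axis, starting at 0), for the 4 groups on the horizontal axis; each point is 1 library and each line the mean of 2. The RNA libraries lie between 2.66% and 2.82% and the footprint libraries between 1.22% and 1.34%, with RNG140-GFP above control in RNA and below control in footprints.

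The next values describe how many footprints giant transcripts had for their RNA in control cells, before any effect of RNG140-GFP. Most had fewer than the bulk of transcripts. Of the 178, 140 (in 89 groups) had a footprint level below the RNA level and 11 (in 8 groups) above it in control cells (edgeR quasi-likelihood test, adjusted p under 0.05), against 39.5% of all 15577 tested transcripts below and 37.2% above. Levels are given in CPM, the read count scaled to the counts of tested transcripts in a library times its TMM factor, the edgeR scaling factor. These factors were 0.838 and 0.847 in control footprints and 0.928 and 0.929 in RNG140-GFP footprints. They were 1.098 and 1.096 in control RNA and 1.171 and 1.161 in RNG140-GFP RNA. The factors differ between assays, so CPM ratios are not ratios of the plain shares given above. The median ratio of footprint to RNA CPM, on the log2 scale, was -0.78 and -0.71 in the 2 control replicates for giant transcripts, -0.54 and -0.56 for listed lengths from 1000 to under 2500, and -0.04 and -0.05 over all tested transcripts. Ratios by replicate, here and below, join the footprint and RNA libraries of equal number, a pairing that the labels do not give. The assays were prepared differently, so the ratio ranks transcripts within an assay pair and is no absolute rate of translation. The differences between these medians were not tested. Among giant transcripts the ratio spanned a range from -3.42 to 0.995 on the log2 scale of the fit. Its order was similar in both control replicates (Spearman rho = 0.91, Pearson r = 0.92 across the 178 transcripts, which share libraries and in part reads).

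**Figure D2:**
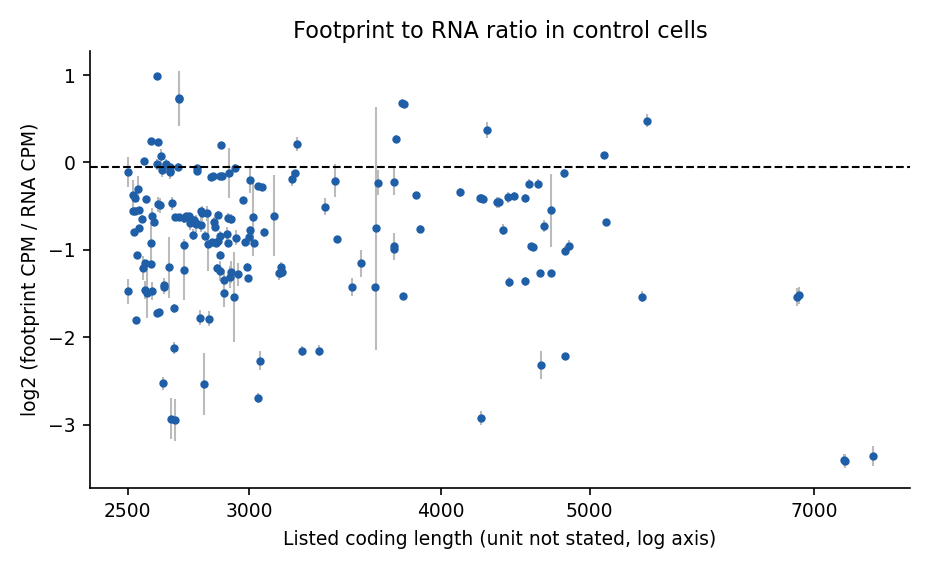
Ratio of footprint to RNA CPM, as log2, in control cells (vertical axis) against listed coding length (horizontal log axis) for the 178 tested giant transcripts; points are means of 2 replicates, grey lines join the replicates, and the dashed line is the median of all tested transcripts. Most points lie below the dashed line at every length, and the lowest are the 3 transcripts of length 7320, 7336 and 7641.

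The lowest control ratios belonged to the longest of the giant transcripts. The group of listed lengths 7320, 7336 and 7641 was well expressed in RNA yet carried few footprints. In controls, the transcript of length 7641 had RNA values of 244 and 221 CPM and footprint values of 22.1 and 23.2 CPM, a ratio of 0.0904 and 0.105. Its log2 ratio was -3.37 ± 0.11 (SE; edgeR adjusted p = 2.72e-23). Its 2 variants had -3.40 and -3.42. A second pair, of lengths 2667 and 2683, had -2.97 and -2.98 and rested on 40 and 27 footprint counts in controls, so low ratios occurred near the lower end of the length range as well. At the other end, length 2613 had control values of 38.4 and 39.2 CPM in RNA against 78.3 and 76 CPM in footprints, a log2 ratio of 0.995 ± 0.08 (SE; edgeR adjusted p = 3.49e-12). The variants of lengths 3773 and 3785 had 0.68 each. Lengths 2699 and 2700 had 0.84 and 0.85, but with 46 and 16 footprint counts in controls they were not called without the first control footprint library, where they stood at 0.39 and 0.40. Across all 178, the control ratio had a weak negative relation to length (Spearman rho = -0.08, Pearson r = -0.25), and with 1 transcript per group rho was -0.03 and r was -0.14.

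RNA levels of giant transcripts changed in both directions in RNG140-GFP cells. RNA rose for 73 of 178 (in 52 groups) and fell for 52 (in 35 groups; edgeR, adjusted p under 0.05), against a background of 31% rising and 30.3% falling among all tested transcripts. The median log2 change was 0.05, against 0.01 over all tested transcripts, with a median standard error of 0.066. The lower and upper quartiles were -0.21 and 0.36. Over 2-fold, 7 rose and 4 fell (background 2.63% and 2.86%). Both RNG140-GFP values lay above both control values for 89 of the 178 (background 40.5%) and below them for 60 (39.9%).

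The largest RNA rises were found in giant transcripts of low abundance. The transcript of length 3627 went from 1.45 and 2.14 CPM in control RNA to 4.87 and 4.57 CPM, from 57 and 73 counts to 157 and 121. This was a log2 change of 1.41 ± 0.21 (SE; edgeR adjusted p = 9.74e-07). Lengths 2557 and 3198 rose by 1.35 and 1.30 from below 5 CPM, and lengths 3623 and 2805 by 1.26 and 1.20. More abundant was length 2842, whose RNA went from 62 and 57.7 CPM to 134 and 131 CPM and rose by 1.14 ± 0.07 (SE; edgeR adjusted p = 3.15e-15). In each of these 6, as the rule for naming required, both RNG140-GFP values lay above both control values.

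The RNA falls included abundant and sparse transcripts. RNA of length 4287 went from 234 and 231 CPM to 104 and 101 CPM, a log2 change of -1.19 ± 0.07 (SE; edgeR adjusted p = 3.02e-15). Length 4716 fell further, by 1.40, but from 8.83 and 6.88 CPM to 3.41 and 2.49 CPM. Lengths 2573 and 2875 fell by 1.28 and 1.20, and lengths 3363 and 2972 by 0.78 and 0.77, length 2972 from 269 and 263 CPM to 154 and 158 CPM. The most abundant giant transcripts in RNA, a group of lengths 2519, 2527 and 2544, showed little change: RNA of the variant of length 2527 was 871 and 802 CPM in controls, close to the 878 and 837 CPM with RNG140-GFP (log2 change 0.03 ± 0.07 SE). Per 1000 units of listed length the RNA level of this variant was 331 CPM in controls, against a median of 26.9 for giant transcripts and 52.1 over all tested transcripts. The next most abundant pair, of lengths 4580 and 4592, fell by 0.22 in RNA and by 0.55 in footprints.

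Footprints on giant transcripts fell more often than they rose. They fell for 79 of 178 (in 54 groups) and rose for 21 (in 16 groups; edgeR, adjusted p under 0.05), against 26.4% falling and 25.9% rising among all tested transcripts. The median log2 change was -0.20, a ratio of 0.872, against 0.02 over all tested transcripts and -0.10 for listed lengths from 1000 to under 2500. Over 2-fold, 10 fell and 5 rose (background 3.7% and 5%). Control and RNG140-GFP libraries did not overlap for 105 with lower (background 36.2%) and 35 with higher values (38.8%).

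The largest footprint falls came with RNA falls, and the largest footprint rises with RNA rises. Footprints on the transcript of length 4716 fell by 1.31, from 34 and 26 counts to 23 and 33 in the deeper RNG140-GFP libraries, or from 4.52 and 6.29 CPM to 2.05 and 2.11 CPM. The variants of lengths 4643 and 4719 rested on more reads: length 4643 went from 89.7 and 90.5 CPM to 36.4 and 38.8 CPM, a log2 change of -1.26 ± 0.09 (SE; edgeR adjusted p = 1.64e-13), while its RNA went from 214 and 219 CPM to 143 and 144 CPM. Lengths 4428 and 4537 changed by -1.21 and -1.20 and length 2875 by -1.29 in footprints. In all 6, both RNG140-GFP footprint values lay below both control values, as required for naming.

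Rises in footprints were in part thinly supported. The transcript of length 2805 rose by 1.75 ± 0.75 (SE; edgeR adjusted p = 0.0249), but from 4 and 1 counts to 18 and 21, and it was not called when either control footprint library or the first RNG140-GFP footprint library was left out (adjusted p = 0.0922, 0.121 and 0.0697). Lengths 2557, 3627, 3623 and 3198 rose by 1.60, 1.51, 1.31 and 1.31, all from fewer than 50 counts in each control footprint library. For length 3627, with 17 and 2 control footprint counts, the rise was 3.24 without the first control footprint library. Length 2998 rested on 225 and 134 control counts and went from 29.9 and 32.4 CPM to 62 and 57.2 CPM, a rise of 0.94 ± 0.10 (SE; edgeR adjusted p = 2.21e-09).

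Footprint changes followed RNA changes across giant transcripts (Pearson r = 0.81, Spearman rho = 0.75, n = 178 transcripts from the same libraries), with most points below the line of equal change. Of the 73 giant transcripts whose RNA rose, footprints rose for 20 (27.4%), had no call for 43 and fell for 10 (13.7%). Among all 4827 tested transcripts whose RNA rose, footprints rose for 56.4% and fell for 4.04%. Of the 52 giant transcripts whose RNA fell, footprints fell for 47 (90.4%) and had no call for 5, against 61% falling among all 4727. Of the 53 without an RNA call, footprints fell for 22 (41.5%) and rose for 1 (1.89%), against 17.1% falling and 18.4% rising among all 6023. The differences between these percentages were not tested.

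**Figure D3:**
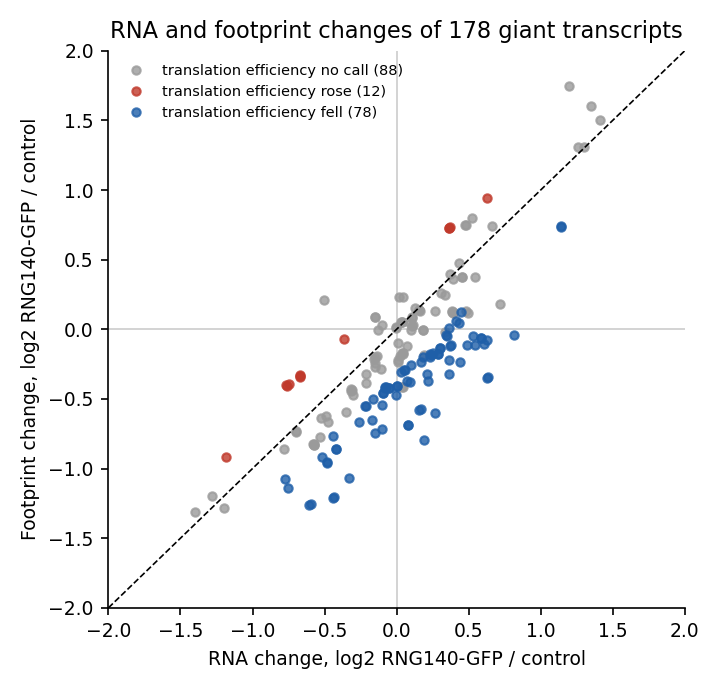
Change in footprints (vertical axis) against change in RNA (horizontal axis), both log2 of RNG140-GFP over control, for 178 giant transcripts; colours give the translation efficiency call and the dashed line marks equal change. The 78 transcripts whose translation efficiency fell lie below the line, at RNA changes from -0.77 to 1.14, and the 12 that rose lie above it.

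Translation efficiency of giant transcripts fell far more often than it rose. It fell for 78 of 178 (43.8%, in 55 groups) and rose for 12 (6.74%, in 6 groups; edgeR interaction contrast, adjusted p under 0.05), against 12% falling and 11.2% rising among all tested transcripts. Among listed lengths from 1000 to under 2500, falls (25.3%) also outnumbered rises (3.01%), so this imbalance was not particular to giant transcripts. The median standard error of the change was 0.116 for giant transcripts, 0.142 for lengths from 1000 to under 2500 and 0.164 over all tested transcripts. A smaller error makes a call easier, and how far this shaped the percentages was not tested. The median log2 change of giant transcripts was -0.26, a ratio of 0.838, against 0.01 over all tested transcripts. The changes were moderate, from -0.99 to 0.71 on the log2 scale, so none reached 2-fold in the fit of all 8 libraries (background over 2-fold 0.526% falling and 1.43% rising). The estimate was negative for 140 of the 178. With ratios formed by replicate number, both RNG140-GFP ratios lay below both control ratios for 112 (background 30.1%) and above them for 19 (31.1%). Among the 78 that fell, the median change was -0.44 and 28 exceeded 0.5 in size, whereas the 12 that rose had a median of 0.34. The falls were called in 54 to 78 transcripts when any 1 library was left out. The rises were not stable: their number ranged from 0 (without the first control RNA library, where 12 still had an unadjusted p under 0.05) to 11. It was 4 without the second RNG140-GFP footprint library, 7 without the second control footprint library, 7 without the second RNG140-GFP RNA library, and 4 in DESeq2.

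The falls were found beside every kind of RNA call. Translation efficiency fell for 39 of the 73 giant transcripts whose RNA rose, for 20 of the 53 without an RNA call and for 19 of the 52 whose RNA fell. The corresponding percentages were 53.4%, 37.7% and 36.5%, against 16.3%, 9.48% and 10.8% among all tested transcripts with the same RNA calls. RNA is the denominator of translation efficiency, so noise in the RNA libraries enters both calls. How far this shaped the 3 counts was not tested. The median log2 change in translation efficiency was -0.38, -0.21 and -0.17 in these 3 sets.

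By length class, the longest giant transcripts had the highest share of falls. Translation efficiency fell for 39 of 106 transcripts of listed length from 2500 to under 3000 (36.8%), 16 of 36 from 3000 to under 4000 (44.4%) and 23 of 36 of length 4000 or more (63.9%), compared with 25.3% of 1795 transcripts from 1000 to under 2500. The 12 rises lay in the first class (8) and the last (4). Median log2 changes were -0.20, -0.36 and -0.35 in the 3 classes and -0.15 for lengths from 1000 to under 2500. The 3 classes held transcripts of 69, 28 and 24 groups, with median standard errors of 0.115, 0.131 and 0.111. Their median RNA in the first control library was 86.9, 77.5 and 176 CPM. The relation to length within the giant transcripts was weak, with Spearman rho = -0.18 and Pearson r = -0.15 over 178 transcripts, and rho = -0.14 and r = -0.11 with 1 transcript per group. The differences between classes were not tested. Calls also went with RNA level: when the transcripts were split into 3 sets by control RNA per listed length, 16 of 60 fell in the lowest, 30 of 59 in the middle and 32 of 59 in the highest set, with median standard errors of 0.158, 0.118 and 0.101. The median changes in these 3 sets were -0.15, -0.33 and -0.33.

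**Figure D4:**
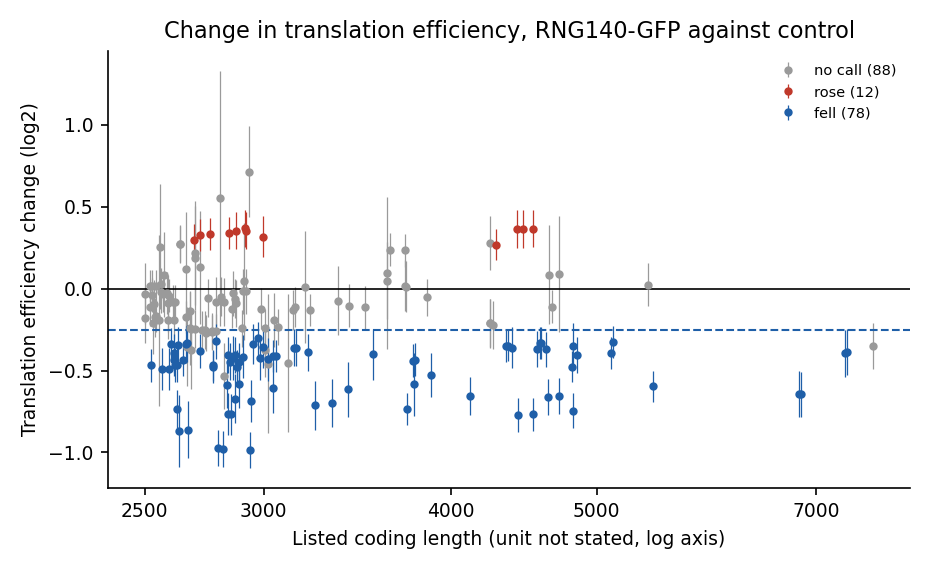
Change in translation efficiency (log2 RNG140-GFP over control, vertical axis) against listed coding length (horizontal log axis) for 178 giant transcripts; bars are standard errors, colours the calls, and the dashed line the median of -0.26. The 78 falls lie between lengths 2524 and 7336, while the 12 rises lie between lengths 2695 and 4535.

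The largest fall in translation efficiency was that of ENSCGRT00000008099, of listed length 2938. Its RNA went from 150 and 166 CPM to 170 and 191 CPM, whereas its footprints went from 140 and 163 CPM to 81.7 and 90.8 CPM. Its ratio of footprints to RNA thus went from 0.933 and 0.984 to 0.481 and 0.476, with no overlap. The log2 change was -0.99 ± 0.11 (SE; edgeR adjusted p = 1.99e-07). The second was that of ENSCGRT00000010148, of length 2817, whose variant of length 2796 behaved alike. Its RNA rose from 97.7 and 98.1 CPM to 151 and 152 CPM while its footprints fell from 61.4 and 69.5 CPM to 51.4 and 50.4 CPM. Its ratio went from 0.629 and 0.708 to 0.34 and 0.332, a log2 change of -0.98 ± 0.11 (SE; edgeR adjusted p = 9.24e-08). These 2 falls thus differed in how they arose from the counts, the first mainly through fewer footprints and the second through more RNA and fewer footprints.

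The other falls named by size combined RNA and footprints in further ways. Length 2670 had nearly the same footprints in both conditions, 14.4 and 13.6 CPM against 13 and 14.1 CPM, while its RNA rose from 18.8 and 19.7 CPM to 33.3 and 34.6 CPM. Its translation efficiency changed by -0.86 ± 0.18 (SE; edgeR adjusted p = 0.000357). Length 4428 fell in both assays, by 0.44 in RNA and by 1.21 in footprints, and in translation efficiency by 0.77 ± 0.10 (SE; edgeR adjusted p = 1.74e-06). The transcript of length 2636 had a low ratio already in controls, 0.183 and 0.165, which became 0.0852 and 0.109. Its identifier directly follows those of lengths 7320, 7336 and 7641, the group with the lowest control ratios. Its counts differ from theirs, and whether it is a variant of the same gene is not known. Its change of -0.87 ± 0.22 (SE; edgeR adjusted p = 0.00431) was not called without the first control footprint library (adjusted p = 0.137), where its control level rested on 28 footprint counts.

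The largest called rises in translation efficiency were smaller than these falls and came from 2 groups. Length 2932 had the largest estimate, 0.71 ± 0.28 (SE), but was not called (edgeR adjusted p = 0.0558). In ENSCGRT00000001123, of listed length 2915, RNA went from 146 and 135 CPM to 79.9 and 85.9 CPM and footprints from 53.8 and 59.5 CPM to 40.2 and 44.6 CPM. Footprints thus fell less than RNA, and the ratio went from 0.369 and 0.44 to 0.503 and 0.52, a log2 change of 0.37 ± 0.11 (SE; edgeR adjusted p = 0.0168). Its variants of lengths 2873 and 2920 changed by 0.35 each. In ENSCGRT00000004211, of length 4535, both RNA and footprints rose: RNA went from 62.4 and 58.4 CPM to 79.9 and 76.4 CPM and footprints from 48.6 and 42.6 CPM to 73.3 and 80.4 CPM. Its ratio went from 0.779 and 0.729 to 0.917 and 1.05, a log2 change of 0.37 ± 0.11 (SE; edgeR adjusted p = 0.017), and its variants of lengths 4423 and 4463 followed at 0.37 each. All 6 lost their call in 5 of 14 alternatives, DESeq2 among them, with adjusted p up to 0.152 for ENSCGRT00000001123 and up to 0.112 for ENSCGRT00000004211. Of the remaining 6 rises, which were named after their values were seen, lengths 2721, 2763 and 2844 form 1 group and lengths 2695, 2998 and 4287 stand alone, with changes from 0.27 to 0.34.

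**Figure D5:**
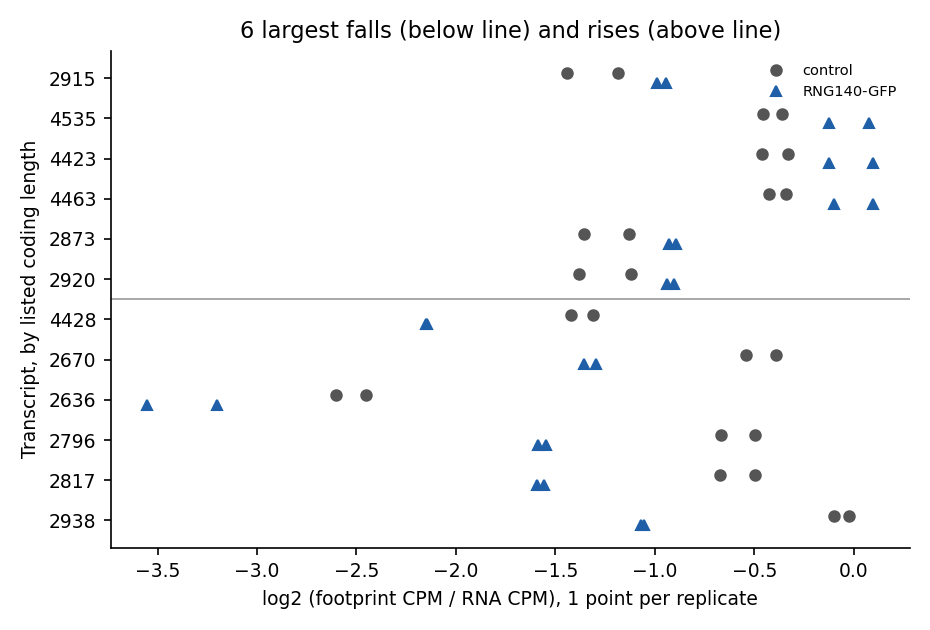
Ratio of footprint to RNA CPM, as log2, (horizontal axis) for the 6 largest called falls and the 6 largest called rises in translation efficiency. Each is named by listed length (vertical axis). Circles are the 2 control and triangles the 2 RNG140-GFP replicates. Control and RNG140-GFP points do not overlap in any of the 12, as the rule for naming required, and the distances are wider for the falls.

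The longest giant transcripts rose in RNA without a call in footprints. The variants of lengths 6823 and 6840 rose by 0.58 in RNA, length 6840 from 93.7 and 82.4 CPM to 128 and 137 CPM. Its footprints, at 34.9 and 26.9 CPM in controls against 28.7 and 32 CPM, overlapped between groups, with a log2 change of -0.06 ± 0.12 (SE). Its translation efficiency fell by 0.65 ± 0.14 (SE; edgeR adjusted p = 0.00106). In the group with the lowest control ratios, RNA rose by 0.35, 0.34 and 0.33 for lengths 7320, 7336 and 7641, while footprints changed by -0.05, -0.04 and -0.02 without a call. Translation efficiency was called as falling for lengths 7320 and 7336 (-0.40 and -0.39, edgeR adjusted p = 0.0392 and 0.0471), and length 7641 missed the threshold at -0.35 (adjusted p = 0.0572). These 3 share most reads, so they are 1 measurement close to the threshold.

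Transcripts on either side of the length threshold had overlapping values. The 3 just inside, of listed lengths 2500, 2500 and 2519, had log2 changes in translation efficiency of -0.18, -0.03 and -0.11. Another transcript of length 2519, from the most abundant group, had 0.02. The 3 just outside, of lengths 2495, 2495 and 2496, had -0.24, -0.10 and -0.32. The one at -0.10 appears to share reads with the giant transcript of length 2535, with 1946 against 1989 counts in the first control RNA library. Groups of shared reads were formed among giant transcripts only. Of the 3 giant transcripts that were not tested, those of lengths 2857 and 2902 had 2 and 1 footprint counts in controls and 6 in both RNG140-GFP libraries, and the one of length 3854 had 10 and 1 against 7 and 9. A further 90 transcripts of listed length 2500 or more, up to 8012, did not reach 20 counts in every RNA library. Of these, 18 had 0 counts in all 8 libraries, 5 reached 20 in both control RNA libraries, 2 did so in both RNG140-GFP RNA libraries, and none had more than 8 footprint counts in a library.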

How the data were processed

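Each table the authors deposited covers 1 library and gives, per transcript, a length and a raw read count in whole numbers. The tools, per the submitters' processing notes, were CASAVA 1.8, Bowtie2 2.1.0 and TopHat2 2.0.9, with no roles stated; counter, build and annotation: not given in the sources used here. Some reads appear to be counted on several transcripts. Titles gave the groups and replicate numbers.

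The quasi-likelihood F-test of edgeR (version 4.0.16, R 4.3.3) was fitted to counts (TMM scaling, 4 group means over 8 libraries, 4 residual degrees of freedom) on the 15577 transcripts passing its filter (minimum count 10) in RNA and in footprints, with Benjamini-Hochberg adjustment over all of them and a threshold of 0.05. Contrasts gave changes in RNA, footprints and translation efficiency, and the control ratio. Standard errors are Wald errors, never below counting error. The test was checked on simulated data. Alternatives were RLE size factors, DESeq2 1.42.0, other filters, each library left out, a replicate block, and other length and count minimums.

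Named transcripts were the 5 longest, the 5 most abundant in control RNA, the 5 highest and 5 lowest control ratios, and the 6 largest called changes per direction and contrast without overlap between groups. The members, lists and rules were chosen with earlier results of these data known. Gene lists were not run for want of names. 0 other per-sample columns were left aside.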

Additional observations from a re-analysis of the deposited data

How the results depend on the processing

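No median and no named change or ratio reversed direction in any alternative. Counts of calls and library shares have no sign that could reverse. With 1 library left out at a time there were 64 to 76 rises and 45 to 54 falls in RNA, 16 to 21 and 71 to 80 in footprints, 0 to 11 and 54 to 78 in translation efficiency, and 8 to 12 and 133 to 140 for a higher and lower control ratio; medians ranged from 0.0547 to 0.0943, -0.23 to -0.19, -0.32 to -0.26 and -0.75 to -0.70. For a group reduced to 1 library, the spread of the other groups was assumed. DESeq2 called 4 rises in translation efficiency, with footprint and ratio medians of -0.22 and -0.66; RLE gave the same medians. A minimum count of 50 gave -0.17 and -0.82. With 1 transcript per group, 34 fell in RNA, 6 rose in translation efficiency and 89 had a lower ratio, since fewer were counted, with footprint and ratio medians of -0.22 and -0.77. A length threshold of 2000 moved the medians to 0.10 in RNA, -0.12 in footprints and -0.64 in the ratio, and one of 3000 to -0.25 in footprints, -0.36 in translation efficiency and -0.77 in the ratio, as did an RNA minimum of 100 counts for the ratio (-0.77). Counting identical copies gave shares of 1.38%, 1.37%, 1.24% and 1.27% in footprints and 2.78%, 2.72%, 2.89% and 2.87% in RNA, and over tested counts the control footprint shares were 1.35% and 1.34%. Apart from fewer counted and other thresholds, the cause was not tested. Under the replicate block, translation efficiency fell for 82 and rose for 17; deviations of libraries with equal numbers correlated by r = 0.01 (footprints) and 0.15 (RNA), and the labels give no pairing. Of the named falls in translation efficiency 5 of 6 kept their call in every alternative, whereas all 6 named rises lost it in some. Footprint depth, lowest at 4908885 counts, limits the sparse transcripts.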
